A study of Rattus norvegicus with 28 samples.

Results

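The genes of fatty acid synthesis described here are 8 (Scd, Fasn, Thrsp, Acaca, Acly, Elovl6, Me1 and Srebf1), followed through 28 kidney arrays of female rats. All probe sets whose symbol in the platform annotation is one of these 8 names were taken, which gave 15 of the 31042 probe sets tested, for 8 of 14217 genes. The arrays were 1-colour Affymetrix rat arrays, with 7 in each of 4 groups. The groups were SBN/y rats with both kidneys after a sham operation, SBN/y rats after uninephrectomy (removal of the right kidney), and the same pair of groups in SBH/y rats. The operation followed weaning, and the animals were killed at 5 months of age, 4 months after it. All groups received standard chow ad libitum, and no transgene or drug was used. Both are Sabra strains. SBN/y resists salt-sensitive hypertension, while SBH/y is prone to it and loses protein in the urine. Whether every array stands for its own animal is not given in the labels. The p-values then measure only the spread among these arrays, which may be technical.

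Fatty acid synthesis turns surplus carbohydrate into fat in the cytosol. ATP citrate lyase (Acly) makes acetyl-CoA from citrate, acetyl-CoA carboxylase (Acaca) turns it into malonyl-CoA, and fatty acid synthase (Fasn) builds palmitate from these units with NADPH, part of which malic enzyme (Me1) supplies. Elovl6 lengthens palmitate to stearate and the desaturase Scd places a double bond in it. Thrsp is a small protein that responds to thyroid hormone and carbohydrate and promotes lipogenesis, and Srebf1 encodes a sterol regulatory element-binding protein that drives transcription of the pathway. The pathway is known for high activity in liver and adipose tissue, and the kidney is wrapped in perirenal fat.

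The members were chosen by measured values, with earlier results of these arrays in view. Scd had been named for a low value in SBH/y against SBN/y with both kidneys in place, and the genes were grouped for high values in the SBN/y group with both kidneys. Every contrast that contains the SBN/y or the SBH/y arrays with both kidneys is therefore a description without a test. Those contrasts are the strain difference with both kidneys, the uninephrectomy effect in SBN/y and in SBH/y, and the interaction (the effect of the operation in SBH/y less its effect in SBN/y). The strain difference after uninephrectomy was tested. Values are the deposited log2 values, the value after ± is an SD (n = 7 arrays) for a group mean and a limma standard error for a log2 difference. A probe set counts as called at a limma p below 0.05 after Benjamini-Hochberg adjustment over the 31042 probe sets. Genes other than the members come from lists made with earlier results known, and some were named for a small p. Limma adjusted p-values and calls given for them are therefore descriptions in every contrast. Where a gene had several probe sets, the one with the highest mean stands for it.

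The tissue was checked by markers of the nephron. The group means of Umod of the thick ascending limb lay between 13.21 and 13.26, and those of the proximal tubule receptor Lrp2 all rounded to 12.50. The nephron markers were not constant as a list: of 9 measured, 3 differed between the strains with both kidneys, 4 between the strains after uninephrectomy, 1 for uninephrectomy in SBN/y and 4 for uninephrectomy in SBH/y. By probe sets these were 4, 5, 1 and 5 of 12, against 17.9%, 21.5%, 0.464% and 8.24% of all probe sets called. The distal tubule gene Calb1 was lower in SBH/y by -0.86 ± 0.11 with both kidneys (limma adjusted p = 2.46e-07), and the podocyte gene Nphs1 was lower after uninephrectomy in SBH/y by -0.62 ± 0.10 (limma adjusted p = 8.55e-05). Their part in the results for the members was not tested. Of 6 adrenal cortex genes measured, 6 had means below 5.72, the lowest array median. The highest array median was 5.77, and pairs of arrays correlated at 0.985 to 0.997.

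Promoters of the members were looked for in RefSeq's table for the assembly GRCr8, from 250 bases before to 50 after the start that the table uses, and 5 of 8 members matched. For Scd the table's window lies wholly within the gene's RefSeq span, which reaches further upstream, so that it is not the window at the outermost start. The promoters of Scd and Thrsp are shown because these 2 genes had the widest range of values of the 8 and lay high in the same arrays. Capitals mark matches to CCAAT and GGGCGG on either strand, the letters of the CCAAT box and the GC box. CACGTG (an E-box), TATAAA (the TATA box) and TCACNCCAC (a sterol regulatory element) were also searched on both strands and had no match in either window.
Scd, chr1:253231682-253231981, minus strand: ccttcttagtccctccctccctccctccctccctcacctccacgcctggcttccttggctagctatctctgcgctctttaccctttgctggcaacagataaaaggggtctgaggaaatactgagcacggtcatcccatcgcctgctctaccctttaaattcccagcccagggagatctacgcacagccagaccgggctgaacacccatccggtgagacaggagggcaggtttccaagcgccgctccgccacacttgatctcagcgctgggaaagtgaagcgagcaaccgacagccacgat
Thrsp, chr1:161138915-161139214, minus strand: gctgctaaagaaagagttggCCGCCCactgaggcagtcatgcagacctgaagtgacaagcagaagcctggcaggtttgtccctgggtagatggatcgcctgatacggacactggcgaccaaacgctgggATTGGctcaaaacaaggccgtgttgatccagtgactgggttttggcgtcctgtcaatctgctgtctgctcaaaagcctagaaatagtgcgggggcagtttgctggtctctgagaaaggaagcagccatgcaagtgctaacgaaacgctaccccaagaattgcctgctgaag
The window of Thrsp held 1 CCAAT match at position -121 from the start and 1 GGGCGG match at position -230, both on the opposite strand. None of the 5 motifs matched in the window of Scd. Of 33469 promoters of the same length, 37.5% held CCAAT, 33.1% GGGCGG, 14.2% TATAAA, 6.4% CACGTG and 1.1% TCACNCCAC. A match describes letters only, and the absence of one says only that these letters are not in this window.

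Scd, the desaturase, had the widest range of the 8 genes. In SBN/y with both kidneys its log2 values, from array 1 to array 7, were 8.20, 5.21, 6.03, 8.75, 8.98, 8.73 and 7.13. Arrays 1, 4, 5, 6 and 7 lay above every array of the other 3 groups, whose highest value was 6.45, while arrays 2 and 3 lay within them. After uninephrectomy the SBN/y values ran from 5.00 through a median of 5.66 to 6.11. In SBH/y they ran from 4.75 (median 5.38) to 6.45 with both kidneys and from 4.68 (median 5.12) to 6.28 after uninephrectomy. The group means were 7.58 ± 1.49 and 5.61 ± 0.41 in SBN/y with both kidneys and after uninephrectomy, and 5.55 ± 0.57 and 5.30 ± 0.51 in SBH/y. The first stood above the rest, and the other three lay within 1 SD of each other and below the lowest array median. Signal over background was not measured, so a fold from such low values is not an exact fold of RNA. As a description, Scd was lower in SBH/y than in SBN/y with both kidneys by a log2 difference of -2.02 ± 0.41, and the uninephrectomy effect in SBN/y was -1.97 ± 0.41. Both contrasts use the same SBN/y arrays with both kidneys, so they are not separate evidence. Their standard errors rest on 1 spread shared by all 4 groups, while the SD of Scd was 1.49 in SBN/y with both kidneys and at most 0.57 elsewhere. The differences can therefore look more precise than the groups compared would make them. Fasn, Thrsp and Acaca also had their widest SD in that group on the brightest probe set.

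**Figure D1:**
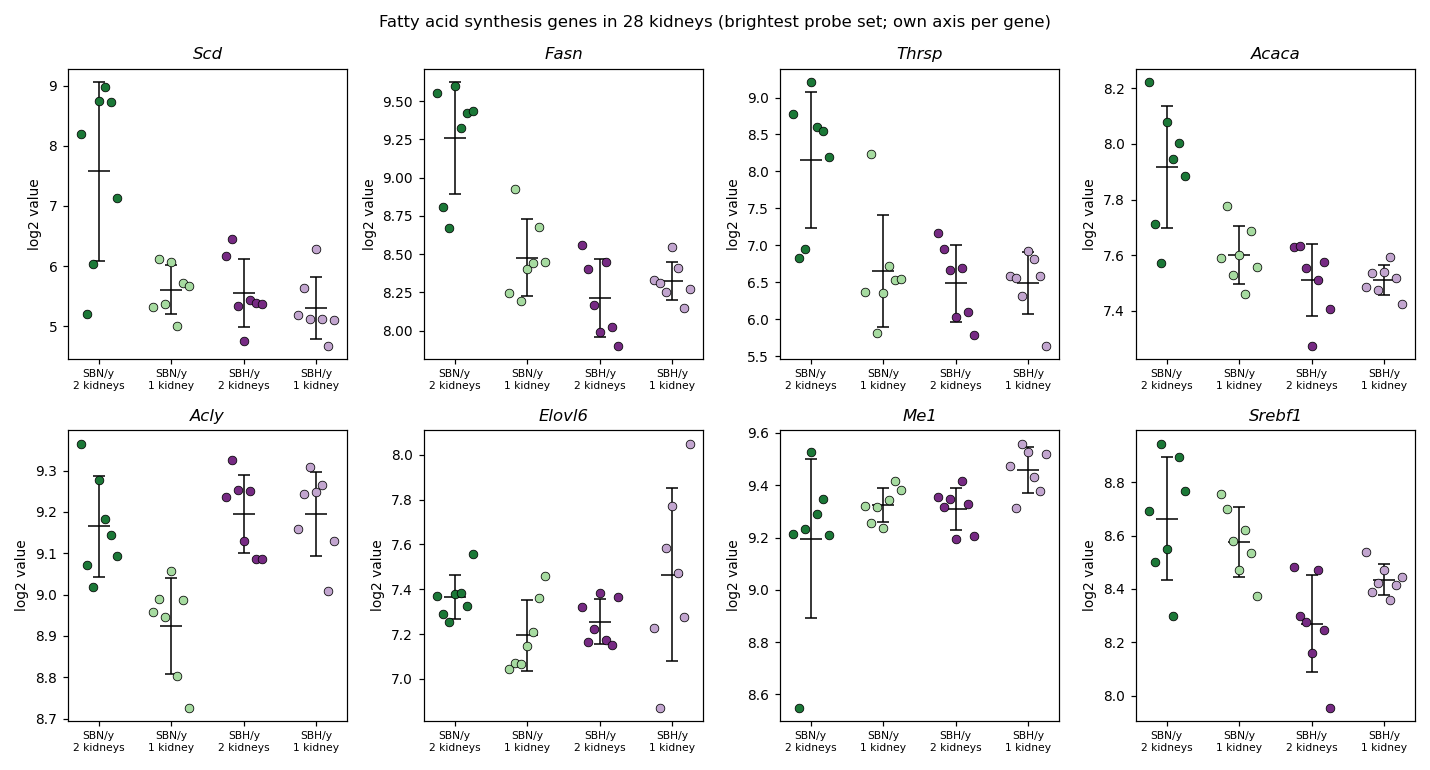
Log2 value (y axis, own scale per gene) of the brightest probe set of each of the 8 genes on the 7 arrays of each group (points, in replicate order from left to right within a group), with the mean and SD as a bar. For Scd, Fasn and Acaca 5 of the 7 arrays of SBN/y with both kidneys lie above every other array, and arrays 2 and 3 lie lower.

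Fasn, the synthase itself, showed the same division of arrays at a higher level. Its brighter probe set, 1367708_a_at, read 9.55, 8.81, 8.67, 9.60, 9.33, 9.42 and 9.43 in SBN/y with both kidneys, from array 1 to array 7. The highest value of any other group was 8.92, in array 2 of SBN/y after uninephrectomy, and arrays 2 and 3 lay below it. The group means were 9.26 ± 0.37 and 8.48 ± 0.25 in SBN/y with both kidneys and after uninephrectomy, and 8.21 ± 0.26 and 8.33 ± 0.13 in SBH/y. In SBH/y with both kidneys the values ran from 7.90 (median 8.17) to 8.56, below all 7 SBN/y arrays with both kidneys. The second probe set, 1367707_at, also did not overlap between the strains with both kidneys. These were the only 2 of the 15 member probe sets without overlap in that comparison, against 6.82% of all probe sets. No member probe set was without overlap between the strains after uninephrectomy (9.15% of all), for uninephrectomy in SBN/y (0.409%) or in SBH/y (1.96%). The description in log2 differences was -1.04 ± 0.13 for the strains with both kidneys and -0.78 ± 0.13 for uninephrectomy in SBN/y, with -1.29 ± 0.17 and -1.03 ± 0.17 for the second probe set.

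Thrsp, the lipogenic regulator, was measured by 3 probe sets that ran together. On the brightest, 1371400_at, SBN/y with both kidneys read 8.78, 6.83, 6.95, 9.21, 8.60, 8.54 and 8.19 from array 1 to array 7. SBN/y after uninephrectomy ran from 5.82 through a median of 6.53 to 8.24, and the next value below 8.24 was 6.72. That single high array was array 2, and it exceeded arrays 2, 3 and 7 of the group with both kidneys. The SBH/y values ran from 5.79 (median 6.66) to 7.17 with both kidneys and from 5.64 (median 6.58) to 6.92 after uninephrectomy, so that SBN/y arrays 2 and 3 with both kidneys lay within the SBH/y range. The group means were 8.16 ± 0.92, 6.65 ± 0.75, 6.48 ± 0.52 and 6.49 ± 0.42, in the order SBN/y with both kidneys, SBN/y after uninephrectomy, SBH/y with both kidneys and SBH/y after uninephrectomy. The strain difference with both kidneys was -1.68 ± 0.33 on this probe set and -1.36 ± 0.25 on the dimmest of the 3, and the uninephrectomy effect in SBN/y was -1.51 ± 0.33 and -1.28 ± 0.25.

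Acaca, the enzyme that commits acetyl-CoA to synthesis, followed the same arrays by a smaller amount. Its brighter probe set, 1370893_at, ran from 7.57 (median 7.95) to 8.22 in SBN/y with both kidneys. The other groups reached at most 7.78, in array 2 of SBN/y after uninephrectomy. Arrays 1, 4, 5, 6 and 7 lay above that value, as for Scd and for both probe sets of Fasn. The group means were 7.92 ± 0.22 and 7.60 ± 0.10 in SBN/y, and 7.51 ± 0.13 and 7.51 ± 0.05 in SBH/y, each with both kidneys first. The strain difference with both kidneys was -0.41 ± 0.07 and the uninephrectomy effect in SBN/y -0.32 ± 0.07. The second probe set, 1387538_at, had all 4 group means between 4.76 and 5.05, below the array medians, and was high in other arrays of SBN/y (2, 4 and 7). Its log2 difference was -0.13 ± 0.06 between the strains and -0.29 ± 0.06 after uninephrectomy in SBN/y.

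Acly, which supplies acetyl-CoA, had its lowest group elsewhere. The values ran from 9.02 (median 9.14) to 9.37 in SBN/y with both kidneys and from 8.73 (median 8.96) to 9.06 in SBN/y after uninephrectomy. They ran from 9.09 (median 9.24) to 9.33 in SBH/y with both kidneys and from 9.01 (median 9.24) to 9.31 after uninephrectomy. The SBN/y group after uninephrectomy was the lowest of the 4, at 8.92 ± 0.12, while the other 3 means lay between 9.16 and 9.20. As a description, the log2 difference was 0.03 ± 0.06 between the strains with both kidneys and -0.24 ± 0.06 for uninephrectomy in SBN/y.

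Elovl6, the elongase, spread most in SBH/y after uninephrectomy. There its brighter probe set, 1388108_at, read 6.87 in array 2 and 8.05 in array 7, with a mean of 7.46 ± 0.39. The other group means were 7.37 ± 0.10 in SBN/y with both kidneys, 7.19 ± 0.16 in SBN/y after uninephrectomy and 7.26 ± 0.10 in SBH/y with both kidneys, and every group overlapped the others. Me1, the malic enzyme, varied little apart from 1 array. On probe set 1370067_at, array 2 of SBN/y with both kidneys read 8.55 while the other 27 arrays lay between 9.20 and 9.56. The second probe set, 1370870_at, read 8.42 in that array, where the next lowest of its group was 9.07. The 4 group means of Me1 lay between 9.20 and 9.46.

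Srebf1, the transcription factor gene, did not follow the arrays of Scd and Fasn in SBN/y with both kidneys, while in SBH/y with both kidneys its 7 arrays stood in the same order as those of Fasn. Its brighter probe set, 1388426_at, ran from 8.30 (median 8.69) to 8.94 in SBN/y with both kidneys. Array 3, which was low in Scd, Fasn and Thrsp, was the highest of its group, and array 5, the highest in Scd, was the lowest. The values ran from 8.37 (median 8.58) to 8.75 in SBN/y after uninephrectomy. In SBH/y they ran from 7.96 (median 8.28) to 8.48 with both kidneys and from 8.36 (median 8.42) to 8.54 after uninephrectomy. The strain difference with both kidneys was -0.39 ± 0.08 and the uninephrectomy effect in SBN/y -0.09 ± 0.08. The second probe set gave -0.28 ± 0.08 and -0.07 ± 0.08.

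Counted over the 15 probe sets, 9 were past the limma threshold in the strain comparison with both kidneys, all 9 lower in SBH/y, where 17.9% of all probe sets were called, 9.64% higher and 8.31% lower. For uninephrectomy in SBN/y 8 of 15 were past it, all lower after the operation, against 0.464% of all probe sets called, 0.222% higher and 0.242% lower. Nothing is read from these counts, since the members were chosen with these arrays in view. The median log2 difference of the 8 genes was -0.40 and -0.28 in the 2 comparisons, against -0.01 and 0.00 over all 14217 genes. The count of 8 fell to 3 with array 5 of SBN/y with both kidneys left out, to 4 without array 3 or array 5 of SBN/y after uninephrectomy, and to 5 without array 4 with both kidneys or array 1, 4 or 7 after uninephrectomy. A fit of the 2 SBN/y groups alone gave 3. For the interaction 2 of 15 were past the threshold, both of Fasn and both higher, against 1.41% of all probe sets (0.596% higher and 0.818% lower). This count rose to 6 without array 2 of SBN/y with both kidneys, and to 5 without array 3 of that group or array 2 of SBN/y after uninephrectomy.

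**Figure D2:**
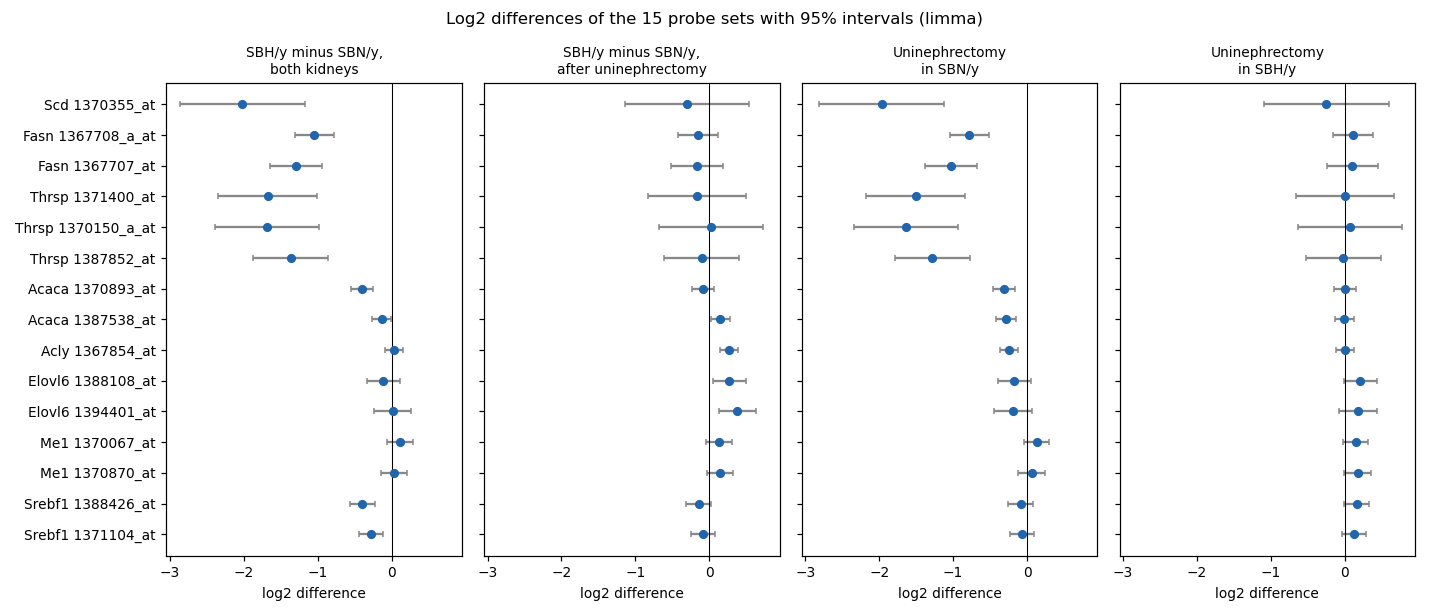
Log2 difference (x axis) of the 15 probe sets in 4 contrasts from limma, with 95% intervals as bars. In the panels that contain the SBN/y arrays with both kidneys, the 6 probe sets of Scd, Fasn and Thrsp lie left of 0, and in the other panels their intervals include 0.

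The group means in the tested comparison of the strains after uninephrectomy share no array with the comparison in which Scd was named. The standard errors come from the fit of all groups, so they also hold the spread of the arrays with both kidneys. Scd, Fasn and Thrsp did not pass the threshold in the tested comparison. Scd differed by -0.30 ± 0.41 (95% interval -1.15 to 0.54, limma adjusted p = 0.692), which leaves room for a difference in either direction. Fasn differed by -0.15 ± 0.13 (interval -0.42 to 0.11, limma adjusted p = 0.485) and Thrsp by -0.17 ± 0.33 (interval -0.83 to 0.50, limma adjusted p = 0.798). Without array 2 of SBN/y after uninephrectomy the Thrsp difference was 0.10, not called. Acaca differed by -0.09 ± 0.07, Srebf1 by -0.14 ± 0.08 and Me1 by 0.13 ± 0.08, none past the threshold. With only the 2 groups after uninephrectomy in the fit, the standard errors were 0.205 for Scd, 0.094 for Fasn and 0.27 for Thrsp. The differences were unchanged, and the limma adjusted p-values were 0.351, 0.3 and 0.739, so none of these genes passed there either.

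Acly was higher in SBH/y than in SBN/y after uninephrectomy, by 0.27 ± 0.06 (limma adjusted p = 0.000791), with 1 probe set and with overlapping groups. Elovl6 was higher by 0.38 ± 0.12 on its dimmer probe set (limma adjusted p = 0.0253). On its brighter probe set the difference was 0.27 ± 0.11 (limma adjusted p = 0.0779), so the 2 probe sets differ in the call and not in direction. The brighter one passed the threshold with array 7 of SBN/y, or array 1 or 2 of SBH/y, left out, with array weights, and with the mean of both probe sets (limma adjusted p = 0.0308). In all, 2 of 15 member probe sets were called, both higher in SBH/y, where 21.5% of all probe sets were called, 11.1% higher and 10.3% lower. The count was 1 without array 1 or 3 of SBN/y or array 4 or 7 of SBH/y.

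For uninephrectomy in SBH/y 0 of 15 member probe sets were past the limma threshold, and 0 had an unadjusted p below 0.05, against 8.24% of all probe sets called (3.33% higher and 4.91% lower). Nothing is read from this count, since it rests on SBH/y arrays with both kidneys. The log2 difference was -0.25 ± 0.41 for Scd (95% interval -1.09 to 0.59), 0.11 ± 0.13 for Fasn (-0.15 to 0.38) and 0.00 ± 0.33 for Thrsp (-0.67 to 0.67). Acaca differed by 0.00 ± 0.07 and Acly by 0.00 ± 0.06, and Elovl6, Me1 and Srebf1 by 0.21 ± 0.11, 0.15 ± 0.08 and 0.16 ± 0.08. A fit of the 2 SBH/y groups alone called 1 probe set, as did the fit of all groups without array 2 of SBN/y with both kidneys or without array 2 of SBH/y after uninephrectomy. With array 2 of SBH/y after uninephrectomy left out the probe set called was the brighter one of Elovl6, at a difference of 0.31. It was not the one called without array 2 of SBN/y with both kidneys.

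Adiponectin (Adipoq), secreted by fat cells, and Ucp1, the uncoupling protein of brown fat, were read on the same arrays as context. In SBN/y with both kidneys Adipoq read 7.47, 6.52, 6.44, 7.20, 6.93, 6.86 and 6.73 from array 1 to array 7, so that arrays 2 and 3 were its lowest as well. In SBN/y after uninephrectomy its highest value was 7.24, in array 2, which was also the highest array of that group for Scd, Fasn, Thrsp, Acaca and Ucp1. The group means were 6.88 ± 0.36 and 6.74 ± 0.28 in SBN/y and 6.56 ± 0.19 and 6.53 ± 0.20 in SBH/y, each with both kidneys first. Adipoq differed by -0.31 ± 0.13 between the strains with both kidneys (limma adjusted p = 0.102) and by -0.14 ± 0.13 for uninephrectomy in SBN/y (limma adjusted p = 0.873).

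Ucp1 read 8.94, 8.55, 6.55, 8.68, 8.72, 8.07 and 8.08 in SBN/y with both kidneys. Array 2, the lowest of that group for Scd and Thrsp, was at the group median for Ucp1, while array 3 was low for all of them. In SBN/y after uninephrectomy Ucp1 ran from 5.12 (median 6.87) to 8.85. In SBH/y it ran from 4.71 (median 5.44) to 6.76 with both kidneys and from 5.76 (median 6.69) to 7.14 after uninephrectomy. The Ucp1 group means were 8.23 ± 0.81, 6.96 ± 1.09, 5.48 ± 0.69 and 6.54 ± 0.46 in the order used for Thrsp above. Between the strains with both kidneys Ucp1 was called lower in SBH/y. Its mean was lower after uninephrectomy in SBN/y and higher after it in SBH/y, neither called in limma.

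With the group means removed, so that differences between groups do not enter, Thrsp, Fasn and Scd varied with the fat genes from array to array. Thrsp had Pearson's r = 0.841 with Adipoq over 28 arrays (permutation p = 1e-05, the smallest that 100000 permutations within groups can give, 8e-05 after Benjamini-Hochberg adjustment over 16 pairs) and Spearman's rho = 0.759 (permutation p = 6e-05, adjusted 0.00048). Fasn had r = 0.776 (permutation p = 2e-05, adjusted 0.000107) and rho = 0.723 (permutation p = 0.00011, adjusted 0.000587). Scd had r = 0.626 (permutation p = 0.00291, adjusted 0.00665) and rho = 0.607 (permutation p = 0.00183, adjusted 0.00569). Without the 2 arrays farthest from the median of Adipoq, array 1 of SBN/y with both kidneys and array 2 of SBN/y after uninephrectomy, r was 0.824, 0.73 and 0.656. Within the single groups of 7 arrays, r with Adipoq lay between 0.631 and 0.948 for Thrsp, 0.624 and 0.85 for Fasn and 0.431 and 0.741 for Scd. Of these 12 values, 1 passed an exact permutation test after adjustment over 64 values, that of Thrsp in SBN/y after uninephrectomy (exact p = 0.00198, adjusted 0.0422). In SBN/y with both kidneys, Acly (r = 0.992, exact p = 0.000198, adjusted 0.0127) and Acaca (r = 0.961, exact p = 0.00119, adjusted 0.0381) passed it as well. Over the 4 groups r ran from -0.156, in SBN/y after uninephrectomy, to 0.992 for Acly, and from 0.337, in SBH/y with both kidneys, to 0.961 for Acaca. In SBN/y with both kidneys the 7 arrays stood in the same order for Acly as for Adipoq. These pairs were picked with earlier results known, and the arrays include those by which the members were chosen. The p-values with Adipoq here, and with Adipoq and Ucp1 below, are therefore descriptions, also where a pair passed.

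The other 5 members had lower values of r with Adipoq than Thrsp and Fasn, and differences between members were not tested. Acaca had r = 0.731 (permutation p = 0.00013, adjusted 0.000416) with rho = 0.625 (permutation p = 0.00127, adjusted 0.00508), and Acly r = 0.533 (permutation p = 0.00828, adjusted 0.0166) with rho = 0.509 (permutation p = 0.0109, adjusted 0.0218). Without the same 2 arrays r was 0.6 for Acaca, 0.406 for Acly and 0.392 for Me1. Me1 had r = 0.275 and rho = 0.17, Elovl6 r = 0.017 and rho = 0.295, and Srebf1 r = -0.067 and rho = -0.107, with adjusted permutation p-values of 0.228 or more. With Ucp1 in place of Adipoq, r was 0.785 for Thrsp (permutation p = 1e-05, adjusted 8e-05), 0.714 for Fasn (permutation p = 0.0001, adjusted 0.0004), 0.648 for Acaca (permutation p = 0.00026, adjusted 0.000693) and 0.414 for Scd (permutation p = 0.026, adjusted 0.0462). The rho values were 0.768, 0.598, 0.598 and 0.455, with adjusted permutation p-values of 0.00048, 0.00569, 0.00569 and 0.0384. Acly passed with Ucp1 by rho (0.473, permutation p = 0.0189, adjusted 0.0336) and not by r (0.356, permutation p = 0.0905, adjusted 0.145). Without the 2 arrays r with Ucp1 was 0.689, 0.634, 0.592 and 0.388.

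**Figure D3:**
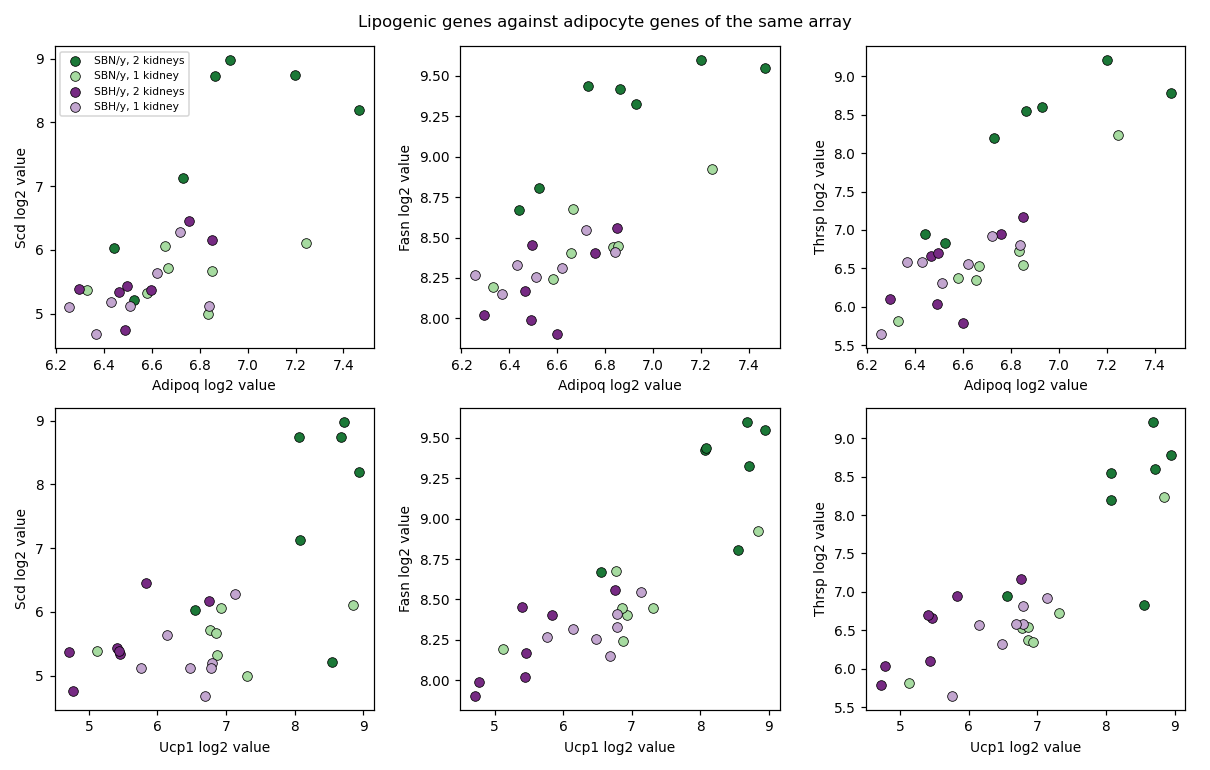
Log2 value of Scd, Fasn and Thrsp (y axes) against that of Adipoq (top row) and Ucp1 (bottom row) on the same array, 28 arrays coloured by group. Arrays with a higher Adipoq value tend to have higher Thrsp and Fasn values, and array 2 of SBN/y with both kidneys (Ucp1 8.55) lies apart at a Scd value of 5.21.

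The marker lists were counted in the same way. Of 18 white adipocyte markers measured, 1 was higher and 3 lower in SBH/y with both kidneys, or 5 of 26 probe sets against 17.9% of all. After uninephrectomy 3 were higher and 1 lower in SBH/y, also 5 of 26 probe sets, against 21.5% of all. For uninephrectomy in SBH/y 3 were lower (Lpl, Cebpa and Cd36), or 4 of 26 probe sets against 8.24% of all. In SBH/y against SBN/y with both kidneys, fatty acid-binding protein Fabp4 was lower by -0.71 ± 0.23 (limma adjusted p = 0.0311). Lipoprotein lipase Lpl, which the kidney also makes, was higher in that comparison by 1.76 ± 0.09 (limma adjusted p = 3.1e-16). None of the 18 passed for uninephrectomy in SBN/y in limma, or 0 of 26 probe sets against 0.464% of all, and 5 had an unadjusted p below 0.05. The mean log2 value over the 18 genes ran from 6.83 to 7.29 in SBN/y with both kidneys and from 6.71 to 7.25 after uninephrectomy, and from 6.96 to 7.05 and from 6.78 to 6.97 in SBH/y. Summed on the linear scale the list ran from 4958 to 6368, 4745 to 6044, 6410 to 7016 and 5574 to 6625 in the same order. Lpl is part of these sums, with log2 group means of 9.38, 9.31, 11.13 and 10.79 in that order. Sums without Lpl were not made, so the higher sums in SBH/y are not read as a rise of the whole list. Gpd1 and Aqp7 are part of the sums too, with group means of 10.50 to 10.62 and 9.81 to 10.06, above those of Adipoq. Of the 18, 6 had means below the lowest array median, which were Lep, Cfd, Plin1, Pparg, Adrb3 and Lgals12, and no value can be 0 on this scale.

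Of 11 brown adipocyte markers measured, 3 were lower and 1 higher in SBH/y with both kidneys, or 6 of 14 probe sets against 17.9% of all. The 3 lower ones were Ucp1, Cox8b and Fabp3. After uninephrectomy 1 was lower in SBH/y, or 1 of 14 probe sets against 21.5% of all. It was Fabp3, with means of 10.98 in SBN/y and 10.49 in SBH/y. For uninephrectomy in SBH/y 1 was lower (Pdk4, from 8.95 to 7.99), or 2 of 14 probe sets against 8.24% of all. None of the 11 passed for uninephrectomy in SBN/y, or 0 of 14 probe sets against 0.464% of all. There 2 had an unadjusted p below 0.05 in limma. Pdk4, a kinase that holds back pyruvate oxidation, was the one higher in SBH/y with both kidneys, by 1.46 ± 0.21 (limma adjusted p = 3.14e-06), and neither of its probe sets overlapped between the strains. The respiratory chain gene Cox8b of brown fat and muscle was lower by -1.42 ± 0.31 with both kidneys (limma adjusted p = 0.00101). Cidea differed by -0.48 ± 0.18 (limma adjusted p = 0.0615). The mean log2 value over the 11 genes ran from 5.46 to 6.09 and from 5.40 to 6.18 in SBN/y, and from 5.48 to 5.67 and from 5.40 to 5.66 in SBH/y, each with both kidneys first. Summed on the linear scale the same list ran from 2461 to 3244, 2528 to 3546, 2360 to 2698 and 1888 to 2671. Fabp3 is part of these sums, with log2 group means of 10.93, 10.98, 10.62 and 10.49 in that order, and sums without it were not made. Of the 11, Cox7a1, Elovl3, Dio2, Zic1 and Ebf2 had means below the lowest array median. Fewer cells of a type and less RNA per cell cannot be told apart in whole kidney. Which cells gave the RNA of each gene of the white and brown lists was not tested.

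With the Adipoq value of the array as a covariate in the fit, the differences of Scd, Fasn, Thrsp and Acaca in the comparisons with the SBN/y arrays with both kidneys were smaller and kept their direction. For the strains with both kidneys Scd went from -2.02 to -1.39 ± 0.36, Fasn from -1.04 to -0.80 ± 0.09, Thrsp from -1.68 to -1.01 ± 0.20 and Acaca from -0.41 to -0.29 ± 0.06. For uninephrectomy in SBN/y Scd went from -1.97 to -1.69 ± 0.34, Fasn from -0.78 to -0.67 ± 0.09 and Thrsp from -1.51 to -1.20 ± 0.19. Srebf1 was at -0.39 without and -0.41 ± 0.09 with the covariate in the strain comparison. After uninephrectomy the strain differences with the covariate were 0.10 for Scd, 0.00 for Fasn and 0.27 for Thrsp, none called, where they had been below 0 without it. The covariate is 1 probe set, so these values show the differences at equal Adipoq and not at an equal amount of fat.

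**Figure D4:**
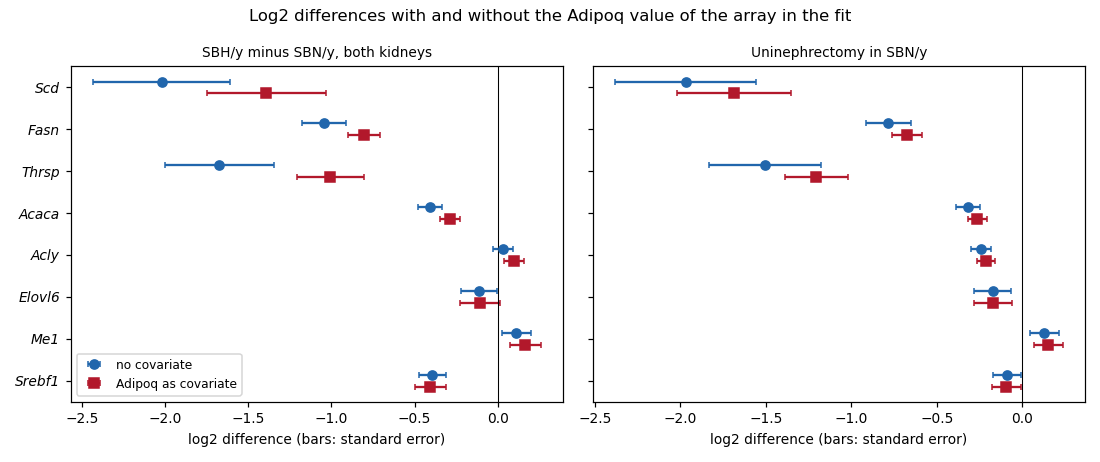
Log2 difference with its standard error (x axis) for the 8 genes, fitted without (circles) and with (squares) the Adipoq value of the array as a covariate. Scd and Thrsp move towards 0 in the strain comparison, to -1.39 and -1.01, and stay below 0.

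Genes whose values were most like those of Scd, Fasn and Thrsp over the 28 arrays, again with group means removed, were looked for among 9481 other genes with a mean above the lowest array median. The values of r are descriptions, and the arrays share their normalization and their tissue. Thrsp was most like Fabp4 (r = 0.901), Fasn (0.896), Cox8b (0.859), Adipoq (0.841), Cidea (0.834) and Acaca (0.798), so that 4 of its nearest 6 were genes of the adipocyte lists. Fasn was most like Thrsp (0.896), Acaca (0.813), Adipoq (0.776), Scd (0.747), Fabp4 (0.741) and Dgat2 (0.727), the last an enzyme of triglyceride formation. Scd was most like Fasn (0.747), Acaca (0.747) and Thrsp (0.739), followed by the mitochondrial carrier Slc25a39 (0.738), the nuclear receptor Esrrb (0.719) and the dynamin Dnm2 (0.712). Without removal of group means r was 0.468, 0.528 and 0.539 for the last 3, against 0.881, 0.888 and 0.882 for Fasn, Acaca and Thrsp.

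The desaturase paralogue Scd2, which lies on the same chromosome as Scd, differed between the strains in both states. On its brightest probe set, 1367668_a_at, SBN/y ran from 10.20 (median 10.77) to 10.97 with both kidneys and from 10.77 (median 10.90) to 11.17 after uninephrectomy. SBH/y ran from 8.76 (median 9.73) to 9.78 and from 9.20 (median 9.65) to 9.78, so the strains did not overlap in either state. Scd2 was lower in SBH/y by -1.27 ± 0.15 with both kidneys (limma adjusted p = 9.92e-08) and by -1.36 ± 0.15 after uninephrectomy (limma adjusted p = 2.04e-08), and all 4 of its probe sets were called in both. Uninephrectomy in SBN/y gave 0.25 ± 0.15 (limma adjusted p = 0.708), where Scd gave -1.97. Arrays 2 and 3 of SBN/y with both kidneys did not stand together for Scd2, at 10.33 and 10.95. The paralogues are alike in sequence, and whether the probes of each also bind the other was not tested.

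**Figure D5:**
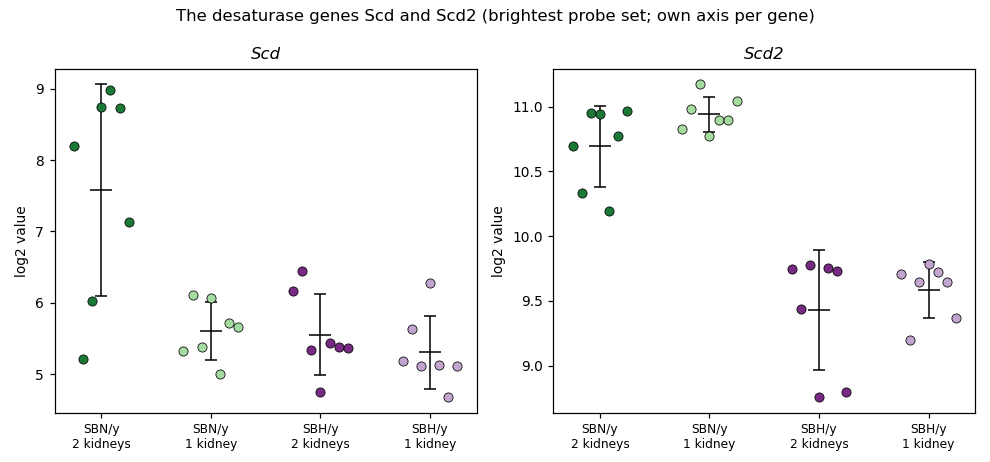
Log2 value (y axis, own scale per gene) of the brightest probe set of Scd and of Scd2 on the 7 arrays of each group (points), with the mean and SD as a bar. Scd is high in 5 arrays of SBN/y with both kidneys, while Scd2 is higher in both SBN/y groups than in both SBH/y groups.

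Of 29 further genes of lipogenesis and its control, 26 were measured. With both kidneys 3 were higher and 6 lower in SBH/y, and after uninephrectomy 4 were higher and 7 lower. On the level of probe sets these were 13 and 15 of 40, against 17.9% and 21.5% of all probe sets. The desaturase Fads1, which acts on polyunsaturated fatty acids, was higher in SBH/y by 0.70 ± 0.10 and 0.88 ± 0.10 (limma adjusted p = 3.64e-06 and 4.96e-08). Insig2, which holds sterol-regulated factors in the endoplasmic reticulum, was higher by 0.32 ± 0.05 and 0.23 ± 0.05. The carbohydrate-responsive factor Mlxipl was lower by -0.31 ± 0.06 and -0.27 ± 0.06. The sterol-pathway factor Srebf2 was lower by -0.30 ± 0.06 and -0.19 ± 0.06 (for these 3 genes the limma adjusted p was at most 0.0249). The list's median difference was -0.07 and 0.00, against -0.01 and 0.00 over all genes.

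None of the 26 passed for uninephrectomy in SBN/y in limma, or 0 of 40 probe sets against 0.464% of all. There 4 had an unadjusted p below 0.05, and the median was -0.07. Uninephrectomy in SBH/y was followed by 2 rises and 3 falls, with 6 of 40 probe sets called against 8.24% of all. Insig1, a feedback gene of sterol control, rose by 0.35 ± 0.10 (limma adjusted p = 0.0227) and Pgd, an NADPH-producing enzyme, by 0.15 ± 0.04 (0.026). Gpam, the first enzyme of glycerolipid formation, fell by 0.38 ± 0.09 on the log2 scale (limma adjusted p = 0.00676), from means below the array medians. The other 2 falls were Insig2 and Mid1ip1, a paralogue of Thrsp, with log2 differences of -0.17 ± 0.05 and -0.22 ± 0.07. In the interaction Slc25a1, the mitochondrial citrate carrier that feeds Acly, was the only one called, at 0.26 ± 0.07 (limma adjusted p = 0.0397). That was 1 of 40 probe sets against 1.41% of all.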

How the data were processed

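Messenger RNA of 28 whole-kidney samples was measured on 1 array each. The authors deposited log2 values for 31099 probe sets, made with GCOS and RMA per the submitters' processing notes. Their versions are not given in the sources used here. RMA sets all arrays to a common distribution, so differences in total RNA cannot be seen. Scanner files were not used here.

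After 57 control probe sets were left out, 31042 were tested, of which 20826 had 1 symbol, 436 several and 9780 none. Symbols were updated by gene identifier in RefSeq's table for GRCr8 (20758 matched). Limma 3.58.1 in R 4.3.3 fitted 1 mean per group to all 28 arrays, with Benjamini-Hochberg adjustment over all probe sets of a contrast. Members and lists were chosen with earlier results of these data known. Named were all 8 members, Adipoq and Ucp1, up to 4 members of each other list with the smallest p in a contrast, and the 6 genes most like Scd, Fasn and Thrsp. Lep, Cfd and other dim markers, Lpl, Cidea, and the fifth call of a list were added after their values were seen. The fit was tested on simulated data with known changes, for the strains after uninephrectomy and for uninephrectomy in SBH/y. Changes of 0.5 in log2 were recovered in 97% and 94%, with 9 and 11 false calls. The simulated arrays were independent, with the same spread in all groups. The simulation therefore says nothing on unequal spread such as that of Scd, or on related arrays. The number of arrays limits the precision.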

Additional observations from a re-analysis of the deposited data

Results flagged for a closer look

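Among 68 sets of 7 arrays (15 member probe sets, Adipoq and Ucp1 in 4 groups), 8 held an array far from the others by Dixon's criterion. Chance gives about 1 in 20 for independent sets. These sets are not independent, since probe sets of 1 gene share their arrays, so the 8 are not read as an excess. Array 2 of SBN/y after uninephrectomy was the highest for the 3 Thrsp probe sets, at 8.24, 8.06 and 7.17 where the next values were 6.72, 6.49 and 6.04. Array 2 of SBN/y with both kidneys was the lowest for both Me1 probe sets, at 8.55 and 8.42. Array 3 of the same group was the lowest for Ucp1 at 6.55, and array 7 the highest for the brighter Elovl6 probe set at 7.56. Array 5 of SBH/y after uninephrectomy was the lowest for the dimmer Acaca probe set at 4.55.

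The uninephrectomy effect in SBH/y less that in SBN/y was 0.89 and 1.13 on the Fasn probe sets, 2.33 for Ucp1, 1.72 ± 0.58 for Scd and 1.51 ± 0.46 for Thrsp. Fasn and Ucp1 stood out because their values were past the limma threshold. The contrast contains the arrays by which the members were chosen, so the values are a description and no test of a difference between the strains.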

How the results depend on the processing

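Alternatives were quantile normalization, median centring, array weights, eBayes with a trend and robust prior, a filter on the dimmest 40% of probe sets, Adipoq as a covariate, only the 2 groups compared, the replicate number as a block, the mean of a gene's probe sets, and leaving out each array. The count of 9 member probe sets called between the strains with both kidneys was 9 in each that gives a count (the mean of probe sets gives none). With Adipoq as a covariate 5 were called for the interaction in place of 2, all higher. With only the 2 groups compared, 3 were called for uninephrectomy in SBN/y in place of 8, all lower, and 1 for uninephrectomy in SBH/y in place of 0, higher. The cause was not tested. With 1 array left out, the counts ran from 9 to 9 for the strains with both kidneys, from 1 to 3 for the strains after uninephrectomy, from 3 to 9 for uninephrectomy in SBN/y, from 0 to 1 for uninephrectomy in SBH/y and from 2 to 6 for the interaction. With the replicate block the counts were 9, 3, 9, 0 and 3 in the same order, and Elovl6 passed between the strains after uninephrectomy (limma adjusted p = 0.0227). The labels do not pair the samples, deviations of same-numbered arrays correlated at -0.095 to 0.586, and 10 of 28 arrays correlated best with their own number in another group. No value of the 8 genes that was past the threshold changed sign under these alternatives. Signal over background was not measured, which limits Scd and the dimmer Acaca probe set most.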
